A study of Rattus norvegicus with 12 samples.

Results

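Chemokines are small secreted proteins that steer migrating leukocytes through receptors on the leukocyte surface. Ccl3, Ccl4 and Ccl5 draw T cells, NK cells and monocytes, Ccl2 draws monocytes through Ccr2, Xcl1 signals to Xcr1 on cross-presenting dendritic cells, Cxcl10 acts on Cxcr3, Cxcl16 is a membrane-bound ligand of Cxcr6, and Cxcl12 retains cells that carry Cxcr4. In the liver, chemokines come from resident macrophages (Kupffer cells), lymphocytes, sinusoidal endothelium, stellate cells and hepatocytes. Described here are 10 chemokine genes, Ccl3, Ccl4, Ccl5, Ccl6, Ccl9, Ccl2, Cxcl12, Cxcl10, Cxcl16 and Xcl1, of the 32883 genes in the gene list of the rat liver libraries. The members were chosen by the measured strain values of Ccl3 in earlier results of these data, in which Ccl3 went one way between strains in cells and the other way in nuclei, and the other genes were added as chemokines to set beside it. The question asked of the remaining 9 genes was whether they did the same. Values of Ccl3 between strains are therefore given as a description, with no test.

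The livers came from healthy male Dark Agouti (DA) and Lewis (LEW) rats, both inbred strains, with no treatment in either. Total liver homogenate (TLH) cells, freed with collagenase in 2 steps, made up 2 libraries per strain. Single nuclei extracted from snap-frozen liver made up 2 libraries per strain, and immune-enriched cells, washed further and depleted of red blood cells, made up 1 library per strain. The design text gives the age as 8 to 10 weeks, while the names of the TLH deposits read 10 weeks for DA and 13 weeks for LEW. The study's methods give an older age and say that the strains were matched for it. These sources differ, and any age difference in these libraries cannot be told apart from strain. Spots of 2 spatial sections came from Wistar liver.

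The TLH libraries held between 61441846 and 92484173 unique molecular identifiers (UMIs, each standing for 1 captured RNA molecule), the nuclei libraries between 8039397 and 15186970, and the immune-enriched libraries 48255870 in DA and 60005133 in LEW. Filters left 3844 to 7112 cells per TLH library, 2205 to 5262 nuclei per library, and 1163 DA and 2677 LEW immune-enriched cells. No cell annotation was used. A cell was placed in a class when it held UMIs of a minimum number of that class's marker genes, none of which was a chemokine. The Kupffer gate took 366 and 472 DA and 276 and 278 LEW TLH cells, 35 and 66 DA and 51 and 56 LEW nuclei, and 32 DA and 83 LEW immune-enriched cells. Csf1r, a macrophage receptor outside the gate, had a UMI in 66.9 to 81.5% of the Kupffer-gated TLH cells and in 73.2 to 83.3% of the Kupffer-gated nuclei. The NK gate took 127 and 87 DA and 101 and 54 LEW TLH cells, and 130 DA and 62 LEW immune-enriched cells. A cholangiocyte gate found at most 4 cells in a library and was dropped. Hepatocyte genes were present in every TLH class. The summed level of the 9 hepatocyte marker genes in Kupffer-gated TLH cells was 40784 to 58083 UMIs per 1000000 UMIs of the class (hereafter CPM). In immune-enriched Kupffer-gated cells this sum was 789 in DA and 19800 in LEW, so the 2 immune-enriched libraries carried very different loads of hepatocyte RNA. UMIs were counted at the 3' end of transcripts and levels are compared only within a gene.

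Of the 10 genes, 6 had an entry in the RefSeq promoter table (build GRCr8, 250 bases before to 50 after the start), namely Ccl6, Ccl9, Cxcl10, Cxcl12, Cxcl16 and Xcl1. Ccl2, Ccl3, Ccl4 and Ccl5 had none. In the RefSeq order on chromosome 10, Ccl9 and Ccl6 were parted only by an uncharacterised long non-coding RNA gene and a ribosomal protein pseudogene, with Ccl5 before them and Ccl3 and Ccl4 after. Ccl2 and Cxcl16 are on chromosome 10 as well, Cxcl12 on chromosome 4, Cxcl10 on chromosome 14 and Xcl1 on chromosome 13. The Ccl6 (chr10:68883317-68883616, minus strand) and Ccl9 (chr10:68868828-68869127, minus strand) promoters are shown because these neighbouring genes had their highest levels in different classes, Kupffer-gated cells and hepatocyte-gated cells. That of Cxcl10 (chr14:15988816-15989115, plus strand) is shown because it was the single one of the 6 with a match to an interferon-stimulated response element. Capitals mark matches, on either strand, to TATAAA (the TATA box), an NF-kB motif (GGG, any 5 bases, CC) and the interferon element (TTTC, any 2 bases, TTTC).
Ccl6: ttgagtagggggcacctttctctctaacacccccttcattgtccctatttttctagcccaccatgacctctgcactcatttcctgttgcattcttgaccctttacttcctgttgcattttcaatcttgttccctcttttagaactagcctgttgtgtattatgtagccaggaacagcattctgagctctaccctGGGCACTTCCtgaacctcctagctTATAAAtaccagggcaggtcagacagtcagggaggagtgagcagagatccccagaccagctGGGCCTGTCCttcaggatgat
Ccl9: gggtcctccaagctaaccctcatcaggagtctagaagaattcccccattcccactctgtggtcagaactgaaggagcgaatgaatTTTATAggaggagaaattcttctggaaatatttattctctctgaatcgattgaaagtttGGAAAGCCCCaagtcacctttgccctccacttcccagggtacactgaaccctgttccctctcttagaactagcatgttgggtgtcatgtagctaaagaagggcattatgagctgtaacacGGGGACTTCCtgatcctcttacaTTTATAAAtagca
Cxcl10: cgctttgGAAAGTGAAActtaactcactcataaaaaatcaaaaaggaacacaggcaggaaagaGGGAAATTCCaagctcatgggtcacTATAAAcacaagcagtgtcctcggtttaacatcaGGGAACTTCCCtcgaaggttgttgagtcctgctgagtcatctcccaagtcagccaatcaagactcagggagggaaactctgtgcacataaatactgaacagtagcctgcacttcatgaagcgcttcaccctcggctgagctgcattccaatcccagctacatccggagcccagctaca

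The Ccl6 window held 1 TATA box and 2 NF-kB matches, the Ccl9 window 3 TATA matches, of which 2 overlap, and 2 NF-kB matches. The Cxcl10 window held 1 TATA box, 3 NF-kB matches, of which 2 overlap, and 1 interferon element. Among 33469 rat promoter windows of the same length, 14.2% held a TATA box, 47.3% an NF-kB match and 3.92% an interferon element, so an NF-kB match was common. The C/EBP motif TTGCNNAA, present in 10.6% of all windows, was in none of the 6. The windows of Cxcl12, Cxcl16 and Xcl1 held none of the 4 motifs, which says only that these letters were not there. Ccl6 and Ccl9 were similar over part of their windows. Shifted by 69 bases, they agreed at 42.0% of 231 bases, against a median of 25.4% over other shifts, and the longest run of letters they shared was 11 bases.

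Each gene had a class in which its TLH level was highest, and these ranks were a description with no test. Ccl3, Ccl4, Ccl5 and Xcl1 were highest in NK-gated cells, Ccl6 in Kupffer-gated cells, and Ccl2 and Cxcl16 in Lyz2 myeloid-gated cells, a gate for monocytes and dendritic cells. Cxcl12 was highest in mesenchymal-gated cells, Cxcl10 in endothelial-gated cells and Ccl9 in hepatocyte-gated cells. With 1 more gate gene required, the class changed for Cxcl10 alone, to Lyz2 myeloid-gated cells.

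**Figure D1:**
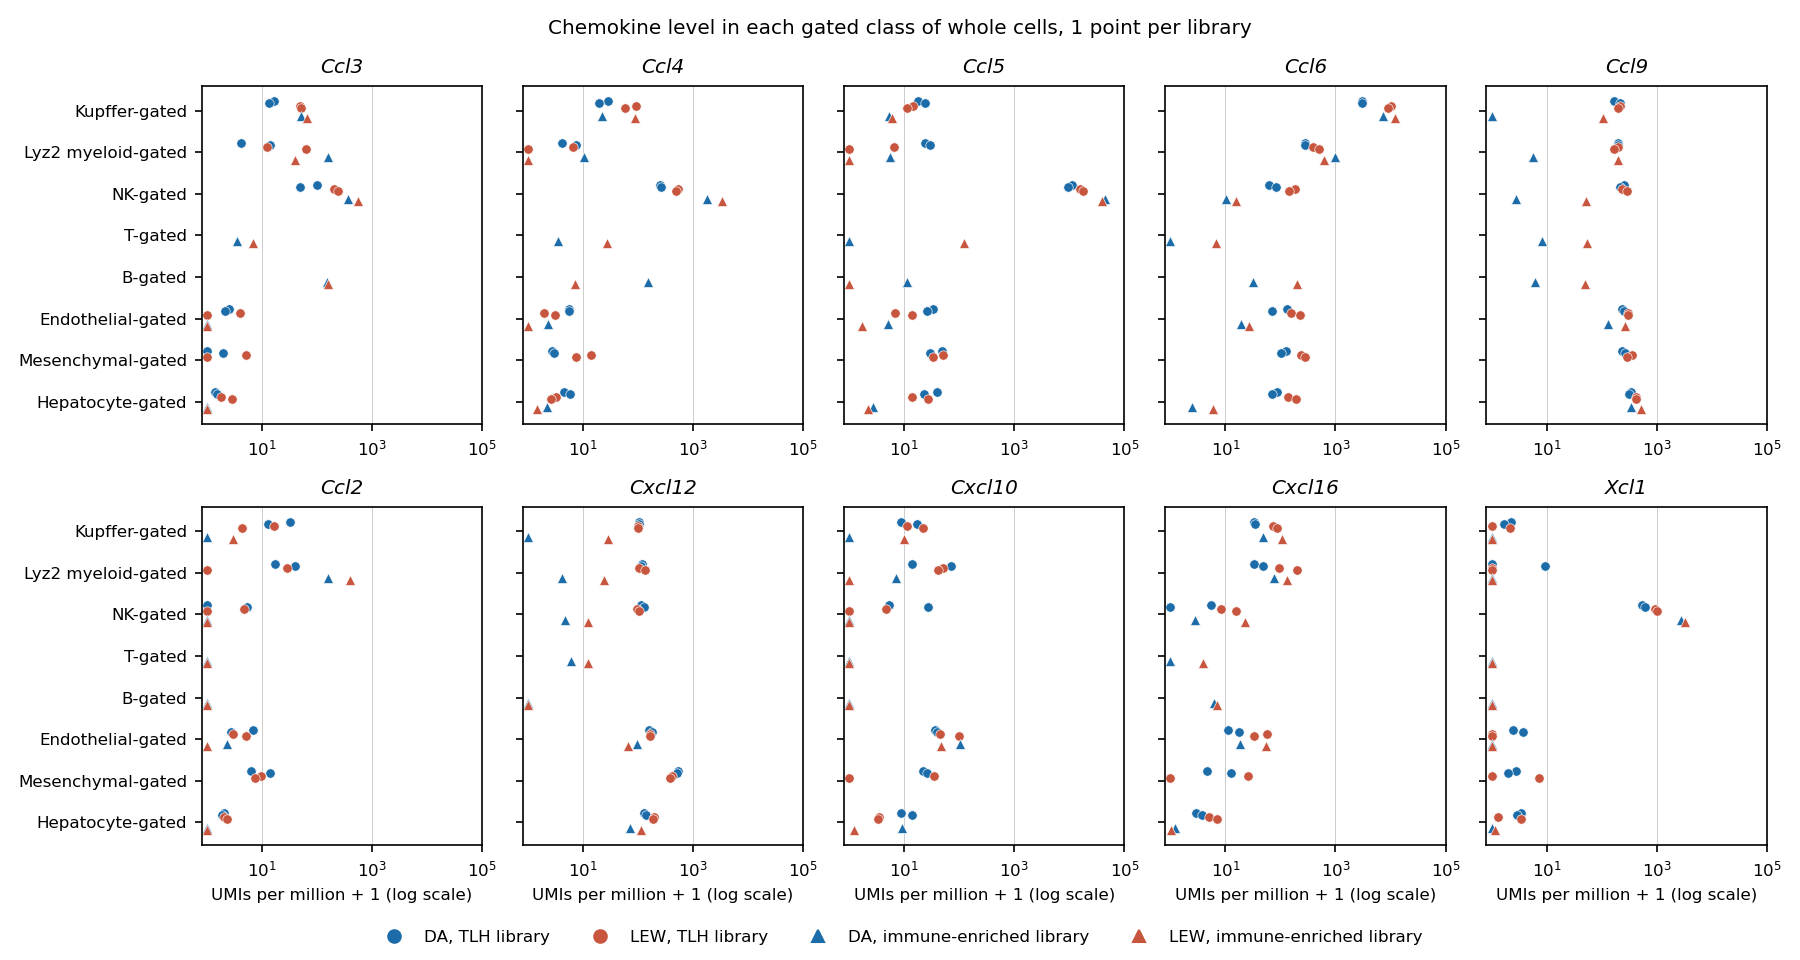
Level of each of the 10 chemokine genes (x axis, UMIs per 1000000 UMIs of the class plus 1, log scale) in the gated classes of whole cells (y axis), 1 point per library of at least 20 cells in the class, with strain by colour and TLH or immune-enriched origin by shape. Ccl5 and Xcl1 in NK-gated cells and Ccl6 in Kupffer-gated cells lay far to the right of the other classes, while Ccl9 was spread over all TLH classes and fell away in the immune-enriched leukocytes of DA.

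Ccl5 and Xcl1 had the steepest gradients between classes. Ccl5 in NK-gated TLH cells was 11050 and 9479 CPM in DA and 15325 and 17478 CPM in LEW, while every other TLH class of 20 or more cells was at or below 50.5 CPM. Between 94.4 and 99.0% of NK-gated TLH cells held a Ccl5 UMI at median depths of 1699 to 2539 UMIs, against 2.66 to 5.09% of hepatocyte-gated cells at 1792 to 2524 UMIs. Xcl1 in NK-gated TLH cells was 532 and 603 CPM in DA and 928 and 1029 CPM in LEW. In hepatocyte-gated cells Xcl1 was between 0.311 and 2.38 CPM. Across 40 library and class sums of 5502 genes, the genes whose levels followed Ccl5 most closely were Nkg7 (Pearson r of 0.98), Gzmm and Xcl1, and those nearest Xcl1 were Gzmk (0.996), Gzma and Gzmbl2. The sums share libraries and these correlations are descriptions. Nkg7, Gzmm, Gzmk and Gzma are part of the NK gate that formed the class, so high correlations with them are partly built in. Immune-enriched NK-gated cells often held UMIs of several of these ligands at once. Of 130 DA immune-enriched NK-gated cells, 130 held a UMI of Ccl5, 116 of Xcl1, 110 of Ccl4 and 73 of Ccl3, and 60 held all of them. Of 62 LEW cells, the counts were 62, 56, 53 and 40, and 37 held all of them. In the shallower TLH libraries 6 of 127 and 5 of 87 DA and 10 of 101 and 13 of 54 LEW cells held all of them.

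Ccl6 stood out in Kupffer-gated cells. It was at 2978 and 3028 CPM in DA and at 10034 and 8983 CPM in LEW Kupffer-gated TLH cells, with a UMI in 93.2 to 98.6% of the cells. Lyz2 myeloid-gated TLH cells were at 277 to 508 CPM and hepatocyte-gated TLH cells at 70.5 to 194 CPM. In the immune-enriched libraries hepatocyte-gated cells held 1.43 CPM of Ccl6 in DA and 5.00 CPM in LEW. Genes with levels most like Ccl6 were Aif1 (r of 0.95), Fcna and C1qa, the last of which is part of the Kupffer gate. Ccl9, the neighbour of Ccl6, followed hepatocyte genes, with Hao2 (r of 0.99), Fgg and Cyp2c13 nearest. Its level was 342 and 317 CPM in DA and 413 and 417 CPM in LEW hepatocyte-gated TLH cells. NK-gated TLH cells, at 216 to 287 CPM, and Kupffer-gated TLH cells, at 169 to 216 CPM, also had Ccl9. In DA immune-enriched cells, where hepatocyte RNA was low, Ccl9 was at 1.81 CPM in the NK gate and at 0 of 235713 UMIs in the Kupffer gate, which allows up to 12.7 CPM. In LEW immune-enriched cells these levels were 51.5 and 104 CPM.

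Cxcl12 was highest in mesenchymal-gated TLH cells, at 530 and 496 CPM in DA and 408 and 370 CPM in LEW. Hepatocyte-gated TLH cells were at 128 to 197 CPM and endothelial-gated TLH cells at 159 to 180 CPM, and these ranges overlapped. Its nearest genes in level were Cdh2 (r of 0.97), Ppp1r14a and C1r. Cxcl16 was at 31.9 and 46.9 CPM in DA and 94.9 and 198 CPM in LEW Lyz2 myeloid-gated TLH cells, a range that overlapped that of Kupffer-gated cells. Cxcl10 was at 35.4 and 38.2 CPM in DA and 42.7 and 98.6 CPM in LEW endothelial-gated TLH cells, and 33 of the 47 UMIs behind the last value came from 1 cell. Lyz2 myeloid-gated TLH cells held 12.8 to 68.2 CPM of Cxcl10, which overlapped the endothelial range. Ccl2 was sparse. It reached 38.4 CPM in Lyz2 myeloid-gated TLH cells, and in the immune-enriched libraries 104 UMIs came from 9 of 91 DA cells and 120 UMIs from 2 of 46 LEW cells. The levels most like Ccl2 were those of Popdc2 (r of 0.86) and those most like Cxcl16 were of Gngt2 (0.86). Those most like Cxcl10 were of Kdr (0.82), which is part of the endothelial gate. For Ccl3 the nearest gene was Ptpn7 (0.90), and for Ccl4 it was Klre1 (0.90), an NK receptor.

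In Kupffer-gated TLH cells the chemokines that differed by strain were higher in LEW. Ccl3, with no test, was at 15.5 and 12.6 CPM in DA and 47.5 and 51.1 CPM in LEW, and the strains did not overlap. These values rested on 12 and 18 UMIs in DA and 47 and 45 in LEW. A Ccl3 UMI was found in 2.46 and 3.18% of the DA cells and 13.4 and 12.2% of the LEW cells, against 0.0760 to 0.436% of hepatocyte-gated TLH cells. LEW cells were deeper, with medians of 3507 and 3064 UMIs against 2036 and 2864 in DA. With every cell thinned to 1000 UMIs the shares were 0.820 and 0.847% in DA and 4.71 and 3.60% in LEW.

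Ccl6 was tested with edgeR's quasi-likelihood test on summed counts, with Benjamini-Hochberg adjustment over all 6343 genes tested. It was 3.09-fold higher in LEW (log2 difference 1.63, SE 0.15, adjusted p = 3.46e-06). Ccl4 was at 27.0 and 18.2 CPM in DA and 90.0 and 56.7 CPM in LEW (log2 difference 1.73, SE 0.28, edgeR adjusted p = 0.00111). Cxcl16 was at 32.2 and 33.5 CPM in DA and 70.8 and 84.0 CPM in LEW (log2 difference 1.19, SE 0.23, edgeR adjusted p = 0.00373). The strains did not overlap for these 3 genes. Of the 8 members tested besides Ccl3, these 3 were called, all higher in LEW, while 7.24% of all genes tested were called in this comparison. Ccl5, Ccl2, Cxcl12, Ccl9 and Cxcl10 were not called, with log2 differences of -0.81, -1.04, -0.10, 0.05 and 0.18. For Ccl9 and Cxcl12 the approximate 95% intervals of the log2 difference, which are too narrow with so few libraries, were -0.29 to 0.40 and -0.46 to 0.26. Xcl1 had 3 UMIs in all and was not tested. The Ccl6 call held in 11 of 11 alternatives. The Ccl4 call was lost without the second DA library (adjusted p = 0.0534), and the Cxcl16 call without the second LEW library (adjusted p = 0.0751) and by DESeq2 (adjusted p = 0.0797). With 2 rats per strain, p-values measure the spread among 4 libraries. Strains that do not overlap are a frequent outcome with so few libraries, even without a strain difference. The share of all genes that did so was not counted, so overlap is a description here and elsewhere.

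The Kupffer gate genes themselves were also higher in LEW TLH cells. Their summed level was 14613 and 16907 CPM in DA and 25157 and 26665 CPM in LEW, and their part in the chemokine differences was not tested. Set per 1000 UMIs of the gate genes, Ccl6 was 204 and 179 in DA and 399 and 337 in LEW, a ratio of 1.92 between strain means. On this scale Ccl4 was 1.85 and 1.07 in DA and 3.58 and 2.13 in LEW, Cxcl16 was 2.20 and 1.98 in DA and 2.81 and 3.15 in LEW, and Ccl3 was 1.06 and 0.744 in DA and 1.89 and 1.92 in LEW. The strains still did not overlap for Ccl6, Ccl4 and Cxcl16, which had been called in these same libraries. They did not overlap for Ccl3 either, which was chosen on its strain values, so this is a description only. Each ratio of strain means was smaller than in CPM, and that of Cxcl16 went from 2.36 to 1.42. Other transcripts moved too. Of 14 immediate-early genes, which respond within minutes to dissociation and other stimuli, 10 were tested and 4 were lower in LEW, namely Fos, Dusp1, Zfp36 and Jun, with a list median of -1.22 on the log2 scale. Of 12 interferon-response genes, 11 were tested and 4 were higher in LEW, namely Gbp2, Isg15, Oas1a and Irf1, with a list median of 0.61. Of 10 NF-kB and inflammatory genes, 4 were tested and 0 called, with a list median of 0.08. In Kupffer-gated nuclei 0 of 11 immediate-early, 0 of 5 interferon-response and 0 of 4 NF-kB genes tested were called. Their list medians there were 0.03, -0.53 and -0.82. The median over all genes tested was near 0 on both platforms. The part of any of these lists in the chemokine values was not tested.

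**Figure D2:**
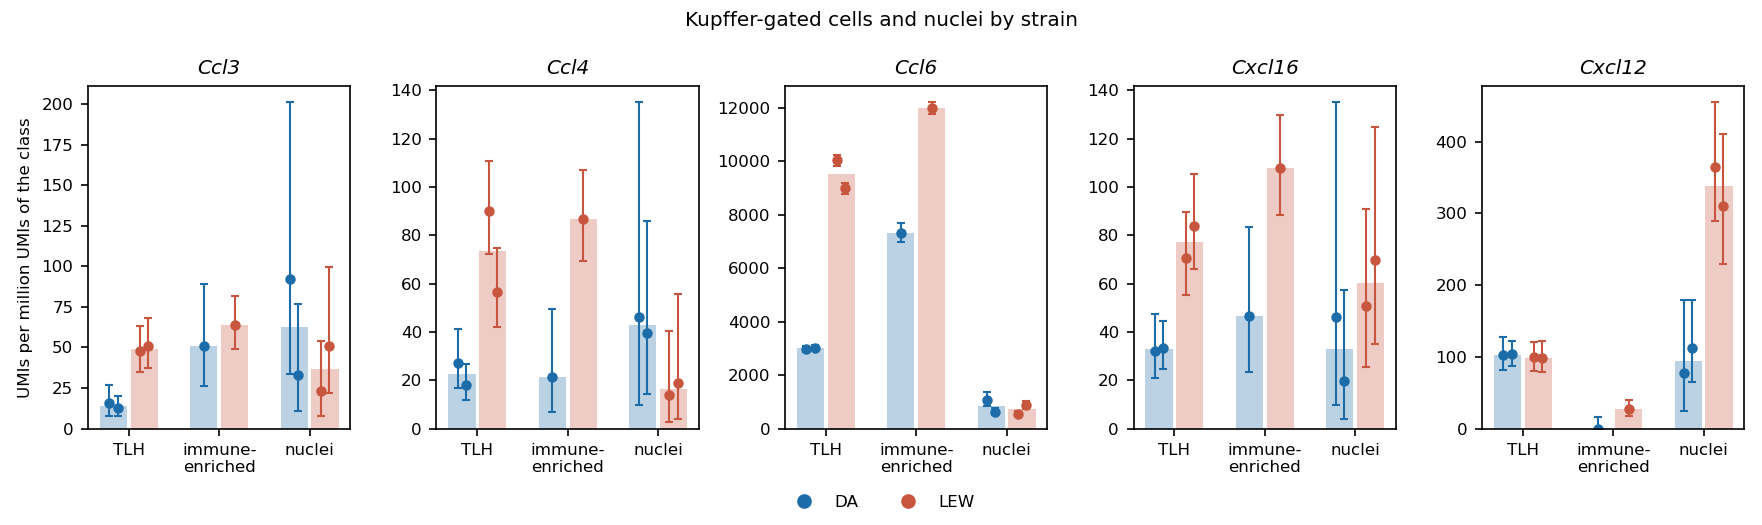
Level of 5 chemokine genes in Kupffer-gated cells and nuclei (y axis, UMIs per 1000000 UMIs of the class) by platform (x axis) and strain (colour). Points are libraries with exact 95% Poisson intervals for counting error, and bars are strain means. Ccl3, Ccl4, Ccl6 and Cxcl16 were higher in both LEW TLH libraries than in both DA ones, and in nuclei Ccl4 lay the other way while Cxcl12 was higher in LEW. Ccl3 was chosen on its strain values.

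In Kupffer-gated nuclei the picture differed by gene. Ccl3 was at 92.5 and 32.8 CPM in DA and 23.1 and 50.7 CPM in LEW nuclei, resting on 6 and 5 UMIs in DA and 5 and 8 in LEW. The LEW mean was 0.589 of the DA mean, but the strains overlapped and the opposite direction rested on the single DA library at 92.5 CPM. Ccl4 had 3 and 6 UMIs in DA and 3 and 3 in LEW, or 46.2 and 39.4 CPM against 13.9 and 19.0 CPM. The Ccl4 strains did not overlap and lay opposite to the TLH cells, yet every library's Poisson interval overlapped every other's. Ccl6 was at 1079 and 630 CPM in DA and 559 and 881 CPM in LEW (log2 difference -0.17, SE 0.39, edgeR adjusted p = 0.915). Its strains overlapped. Cxcl16 was at 46.2 and 19.7 CPM in DA and 50.8 and 69.7 CPM in LEW, higher in both LEW libraries as in TLH cells, from 28 UMIs in all. Of the 10 genes, 3 had enough UMIs for the test in nuclei, Ccl6, Ccl9 and Cxcl12, and 0 were called by edgeR or DESeq2, against 0.647% of 3089 genes called by edgeR. At an unadjusted p under 0.05, Cxcl12 and Ccl9 were below it and Ccl6 was not. Gate genes in nuclei were lower in LEW, at 4759 and 5687 CPM against 8583 and 6915 CPM in DA. Per 1000 UMIs of the gate genes, Ccl3 was 10.8 and 4.75 in DA and 4.85 and 8.92 in LEW, and the ratio of LEW to DA means went from 0.589 to 0.887. On that scale Ccl6 turned, at 126 and 91.2 in DA and 117 and 155 in LEW (ratio 1.26, with overlap). Ccl4 stayed lower in both LEW libraries (ratio 0.565), and Cxcl16 stayed higher (ratio 2.79).

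Whether a strain difference itself changed between cells and nuclei was tested as an interaction over the 8 libraries. The study states that the nuclei came from additional rats, and were prepared with another kit version and read on another sequencer than the TLH cells. A change between platforms cannot be told apart from these differences. Ccl6 and Cxcl12 were called among 6 members tested besides Ccl3, where 0.698% of 7166 genes were called. For Ccl6 the strain difference in nuclei was 1.77 lower on the log2 scale than in TLH cells (SE 0.36, edgeR adjusted p = 0.0243), from a LEW excess in cells to no detectable difference in nuclei. Per 1000 UMIs of the gate genes, which differed between strains in opposite directions on the 2 platforms, the ratio of LEW to DA means of Ccl6 was 1.92 in TLH cells and 1.26 in nuclei, against 3.17 and 0.843 in CPM. The change between platforms was thus smaller on that scale, where it was not tested. For Cxcl12 the strain difference in nuclei was 1.91 higher (SE 0.42, edgeR adjusted p = 0.0363). On the gate-gene scale the Cxcl12 ratio was 0.581 in TLH cells and 5.23 in nuclei, against 0.959 and 3.58 in CPM. Ccl4 had a larger estimate, -3.01 with SE 0.81, and missed the threshold (edgeR adjusted p = 0.0713). For Ccl3 the fitted value, with no test, was -2.30. Cxcl16 (-0.06, 95% interval -1.60 to 1.47), Ccl9 (0.89, 0.07 to 1.71) and Ccl2 (-6.04, -12.14 to 0.07) were not called. Ccl5, Cxcl10 and Xcl1 were too sparse for it. The calls of Ccl6 and Cxcl12 were each lost in 7 of 15 alternatives, with adjusted p up to 0.163 and 0.200, including the fits without any 1 of the 4 TLH libraries or without the first DA nuclei library.

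The Cxcl12 values in Kupffer-gated nuclei ran beside those in hepatocyte-gated nuclei. Cxcl12 was at 77.0 and 112 CPM in DA and 365 and 311 CPM in LEW Kupffer-gated nuclei (log2 difference 1.82, SE 0.41, edgeR adjusted p = 0.0589). In hepatocyte-gated nuclei it was at 97.2 and 140 CPM in DA and 386 and 308 CPM in LEW. Endothelial-gated nuclei held 61.5 and 113 CPM in DA and 407 and 215 CPM in LEW. In all 3 classes both LEW values were above both DA values, and the summed hepatocyte markers in Kupffer-gated nuclei were 37599 to 45904 CPM. The part of hepatocyte RNA in this difference was not tested. Mesenchymal-gated nuclei, where Cxcl12 was highest, did not show it, at 482 and 840 CPM in DA and 854 and 559 CPM in LEW (log2 difference 0.08, 95% interval -0.66 to 0.82). In Kupffer-gated TLH cells Cxcl12 was at 103 and 103 CPM in DA and 99.1 and 98.7 CPM in LEW. In DA immune-enriched Kupffer-gated cells it was 0 of 235713 UMIs and in LEW it was 26.9 CPM.

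In the immune-enriched Kupffer-gated cells, with 1 rat per strain and no test, Ccl6 was at 7318 CPM in DA and 11985 CPM in LEW. The ratio was 1.64 (exact 95% interval 1.56 to 1.72, for counting error only). Ccl4 was at 21.2 CPM from 5 UMIs in DA and 86.8 CPM from 87 UMIs in LEW, a ratio of 4.09 (1.69 to 12.9). Cxcl16 was at 46.7 and 108 CPM, a ratio of 2.31 (1.24 to 4.76). Ccl3 was at 50.9 and 63.8 CPM, a ratio of 1.25 (0.670 to 2.55), with no test, while the ratio of strain means in TLH cells was 3.52.

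In NK-gated TLH cells Ccl4, which draws T cells and monocytes, was higher in LEW. It was at 253 and 255 CPM in DA and 536 and 492 CPM in LEW (log2 difference 0.95, SE 0.22, edgeR adjusted p = 0.0373). It was the single member called of 6 tested besides Ccl3, with 2.76% of 2647 genes called. Xcl1 (log2 difference 0.71, SE 0.18, edgeR adjusted p = 0.0604) and Ccl5 (0.61, SE 0.16, edgeR adjusted p = 0.0642) did not pass, though both LEW libraries were above both DA libraries for each. Ccl6 in this gate, at 61.1 and 83.6 CPM in DA and 185 and 140 CPM in LEW, did not pass either (edgeR adjusted p = 0.0816). Ccl3, with no test, was at 100 and 48.4 CPM in DA and 203 and 235 CPM in LEW. The NK gate genes summed to 4194 and 4555 CPM in DA and to 8699 and 9408 CPM in LEW, so the class markers were higher in LEW as well. Per 1000 UMIs of the gate genes the direction turned for Ccl5, at 2635 and 2081 in DA and 1762 and 1858 in LEW, and for Xcl1, at 127 and 132 in DA and 107 and 109 in LEW. On that scale Ccl4 was at 60.4 and 56.0 in DA and 61.6 and 52.3 in LEW and Ccl3 at 23.9 and 10.6 in DA and 23.4 and 25.0 in LEW, and the strains overlapped for both. The call of Ccl4 was lost in 5 of 11 alternatives, with adjusted p up to 0.410, including the fits without either LEW library.

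In immune-enriched NK-gated cells Ccl5 was at 43817 CPM in DA and 39634 CPM in LEW, a ratio of 0.905 (0.884 to 0.925), opposite in direction to the TLH libraries. Xcl1 was at 2721 and 3298 CPM, a ratio of 1.21 (1.11 to 1.32), but per 1000 UMIs of the gate genes it was at 136 and 128, a ratio of 0.935. Ccl4 was at 1810 and 3276 CPM, but 443 of its 890 LEW UMIs came from 1 cell, and the share of cells with a Ccl4 UMI was 84.6% in DA and 85.5% in LEW, or 51.5 and 62.9% with every cell thinned to 1000 UMIs. Ccl3 was at 367 and 563 CPM, with a UMI in 56.2 and 64.5% of the cells, or 23.8 and 29.0% when thinned. NK-gated nuclei numbered 2 to 7 per library and could not be compared.

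**Figure D3:**
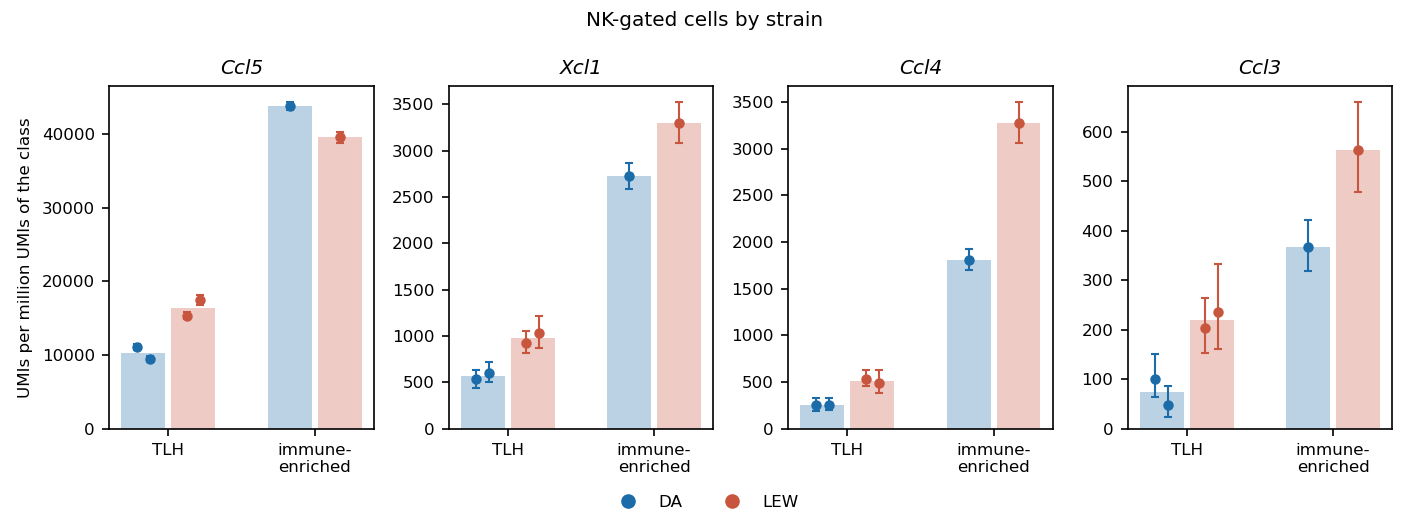
Level of Ccl5, Xcl1, Ccl4 and Ccl3 in NK-gated cells (y axis, UMIs per 1000000 UMIs of the class) in TLH and immune-enriched libraries (x axis) by strain (colour). Points are libraries with exact 95% Poisson intervals for counting error, and bars are strain means. Both LEW TLH libraries were above both DA libraries for all 4 genes, of which Ccl3 was chosen on its strain values, and the immune-enriched Ccl5 value was lower in LEW.

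The Cxcl16 CPM of both LEW TLH libraries was above that of both DA libraries in 3 non-parenchymal gates. In Lyz2 myeloid-gated cells the log2 difference was 1.82 (SE 0.40, edgeR adjusted p = 0.0368), and Cxcl16 was the single member called of 5 tested, with 2.43% of all genes called. The Lyz2 myeloid gate genes summed to 16121 and 22580 CPM in DA and 24711 and 32219 CPM in LEW, and per 1000 of their UMIs the ratio of strain means of Cxcl16 went from 3.71 to 2.46, with no overlap. In endothelial-gated cells Cxcl16 was at 10.3 and 16.3 CPM in DA and 56.3 and 31.5 CPM in LEW (log2 difference 1.61, SE 0.34, edgeR adjusted p = 0.0172). In both gates the lower DA value was below the level of edgeR's filter. Cxcl16 could thus not have entered either test through the DA libraries alone. Both calls carry that limit and are not used as support. It was at 7.69 and 15.2 CPM in DA and 35.7 and 28.2 CPM in LEW endothelial-gated nuclei, from 28 UMIs, too few for the test. The immune-enriched endothelial-gated cells were at 17.2 and 53.2 CPM, with an exact 95% interval of the ratio of 1.71 to 6.08. So for Cxcl16 the CPM of both LEW libraries was above that of both DA libraries in TLH cells and in nuclei of the Kupffer and endothelial gates. In nuclei this rested on 28 UMIs in all in each gate, with no test, and is a description only. Per 1000 UMIs of the endothelial gate genes, TLH cells were at 2.08 and 3.32 in DA and 10.1 and 5.90 in LEW. The immune-enriched Lyz2 myeloid-gated cells were at 75.3 and 131 CPM, a ratio of 1.74 (1.12 to 2.70). Their gate genes summed to 71725 CPM in DA and 44391 CPM in LEW, and per 1000 of those UMIs the Cxcl16 ratio was 2.81. Ccl6 in the same cells was lower in LEW, as the gate genes were, at 994 CPM in DA and 629 CPM in LEW. Its ratio was 0.633 (0.536 to 0.744), and it was not set on the gate-gene scale. In TLH cells of this gate Ccl6 was at 278 and 277 CPM in DA and 385 and 508 CPM in LEW. Ccl3 in the immune-enriched Lyz2 myeloid-gated cells, with no test, was at 160 CPM in DA and 39.3 CPM in LEW, and 68 of its 104 DA UMIs came from 1 cell. The endothelial call was lost in 3 of 11 alternatives, with adjusted p up to 0.367, one of them without the first LEW library, and the Lyz2 myeloid call in 1 of 10, without the second LEW library (adjusted p = 0.302), while DESeq2 gave it no adjusted p.

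Endothelial-gated TLH cells had a second call among 6 members tested, where 3.41% of 6193 genes were called. Ccl5 was at 32.5 and 24.7 CPM in DA and 5.83 and 12.6 CPM in LEW (log2 difference -1.84, SE 0.44, edgeR adjusted p = 0.0340). Hepatocyte-gated TLH cells held 13.1 to 37.8 CPM of Ccl5, and the part of free RNA in the endothelial values was not tested. Of 11 alternatives, the call was lost in 3 and its direction turned in 1. With cells that passed 2 gates kept, the log2 difference turned to 1.35. The call was lost by DESeq2 (adjusted p = 0.462) and with the replicate number as a block (edgeR adjusted p = 0.108). Without the first LEW library the log2 difference shrank to -1.14. The lower LEW value was below the level of edgeR's filter, so Ccl5 could not have entered the test through the LEW libraries alone. Its call carries that limit and is not used as support. Cxcl10, the gene highest in this class, had a log2 difference of 0.73 (95% interval -0.03 to 1.49, edgeR adjusted p = 0.380). Both LEW TLH libraries were above both DA libraries in CPM, but most UMIs of the higher LEW value came from 1 cell, as given above. Per 1000 UMIs of the gate genes the strains overlapped, at 7.14 and 7.78 in DA and 7.67 and 18.5 in LEW. Cxcl10 in endothelial-gated nuclei was at 49.99 and 91.3 CPM in DA and 67.9 and 15.4 CPM in LEW, which overlapped, and in immune-enriched cells at 103 and 46.3 CPM. In endothelial-gated nuclei Cxcl12 was the single call of 3 members tested (log2 difference 1.85, SE 0.37, edgeR adjusted p = 0.0293), with 0.743% of 5248 genes called, and the call was lost with cells of 2 gates kept (adjusted p = 0.0511). Its difference from TLH cells, 1.92 with SE 0.42, did not pass (edgeR adjusted p = 0.0976), and 0 of 6 members did, against 0.0287% of all genes. Cxcl12 was the single member below an unadjusted p of 0.05 in that test, and DESeq2 called 0. Of 11 immediate-early genes tested in endothelial-gated TLH cells, 7 were lower in LEW, and their part in these values was not tested.

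In mesenchymal-gated TLH cells 0 of 4 members tested were called by edgeR or DESeq2, with 0.723% of 4010 genes called. Cxcl12 had a log2 difference of -0.38 (95% interval -0.77 to 0.01), with both LEW libraries below both DA libraries. Ccl6 was at 127 and 99.6 CPM in DA and 236 and 281 CPM in LEW (log2 difference 1.20, SE 0.24, edgeR adjusted p = 0.0508), and was the single member below an unadjusted p of 0.05. In mesenchymal-gated nuclei 0 of 2 members were called by either tool, with 1.03% of genes called. Ccl9 had a log2 difference of 1.46 there (SE 0.36, edgeR adjusted p = 0.0689) and was again the single one below an unadjusted p of 0.05. For the difference between nuclei and TLH cells 0 of 3 members and 0% of genes were called by edgeR, 0 members by DESeq2, and Ccl9 was below an unadjusted p of 0.05.

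In hepatocyte-gated TLH cells Cxcl10, an interferon-induced ligand, was lower in LEW. It was at 7.78 and 12.8 CPM in DA and 2.49 and 2.38 CPM in LEW TLH cells (log2 difference -2.05, SE 0.33, edgeR adjusted p = 0.0126). The immune-enriched hepatocyte-gated cells were at 8.08 CPM from 34 UMIs in DA and 0.238 CPM from 7 UMIs in LEW. Nuclei did not separate, at 2.40 and 10.3 CPM in DA and 3.37 and 8.85 CPM in LEW. Of 12 interferon-response genes tested in hepatocyte-gated TLH cells 0 were called, with a list median of 0.02 on the log2 scale. Endothelial-gated TLH cells held more Cxcl10, as given above, with both LEW libraries above both DA libraries in CPM. The part of free RNA in the hepatocyte-gated Cxcl10 values was not tested. Ccl6 was at 86.1 and 70.5 CPM in DA and 139 and 194 CPM in LEW TLH hepatocyte-gated cells (log2 difference 1.13, SE 0.19, edgeR adjusted p = 0.0174). Ccl6 of the Kupffer-gated cells was also higher in LEW, and immune-enriched hepatocyte-gated cells held 1.43 CPM of Ccl6 in DA and 5.00 CPM in LEW. The part of free macrophage RNA was not tested. These 2 were the calls among 8 members tested, with 4.22% of 9747 genes called. They were lost in 4 and 3 of 11 alternatives, with adjusted p up to 0.164 and 0.115. Both were lost without the second DA library or the second LEW library, and Cxcl10 also without the first LEW library.

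Ccl9 and Cxcl12, the chemokines of these cells with the highest counts, were each higher in the LEW than in the DA hepatocyte-gated libraries within each of 3 platforms, but missed the threshold in both tests. Ccl9 had log2 differences of 0.37 in TLH cells (SE 0.12, edgeR adjusted p = 0.140) and 1.07 in nuclei (SE 0.45, edgeR adjusted p = 0.445), where it was at 230 and 237 CPM in DA and 569 and 383 CPM in LEW. The immune-enriched values were 344 and 531 CPM, a ratio of 1.54 (1.46 to 1.63). Cxcl12 had log2 differences of 0.56 in TLH cells (SE 0.14, edgeR adjusted p = 0.0619) and 1.60 in nuclei (SE 0.44, edgeR adjusted p = 0.123). Its immune-enriched values were 71.1 and 112 CPM, a ratio of 1.57 (1.40 to 1.78).

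Ccl4 in hepatocyte-gated nuclei was lower in LEW, at 13.3 and 11.1 CPM in DA and 1.80 and 2.95 CPM in LEW (log2 difference -2.39, SE 0.43, edgeR adjusted p = 0.0168). It was the single call of 7 members tested, with 1.23% of 10385 genes called. The lower LEW value was below the level of edgeR's filter, so Ccl4 could not have entered the test through the LEW libraries alone. Its call carries that limit and is not used as support. In hepatocyte-gated TLH cells Ccl4 was also lower in LEW, at 3.56 and 4.78 CPM in DA and 2.18 and 1.65 CPM in LEW (edgeR adjusted p = 0.141). This is the direction of Ccl4 in Kupffer-gated nuclei and opposite to that in Kupffer-gated and NK-gated TLH cells. The share of nuclei with a Ccl4 UMI was 2.77 and 2.63% in DA and 0.348 and 0.703% in LEW, or 0.982 and 0.658% against 0.131 and 0.351% when thinned to 1000 UMIs. The call was lost in 3 of 10 alternatives, with adjusted p up to 0.115, namely without the first DA library and without either LEW library. For the difference between hepatocyte-gated nuclei and cells 0 of 8 members were called by edgeR or DESeq2, with 0.00883% of 11319 genes called. Cxcl12, Cxcl10 and Ccl4 were below an unadjusted p of 0.05.

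**Figure D4:**
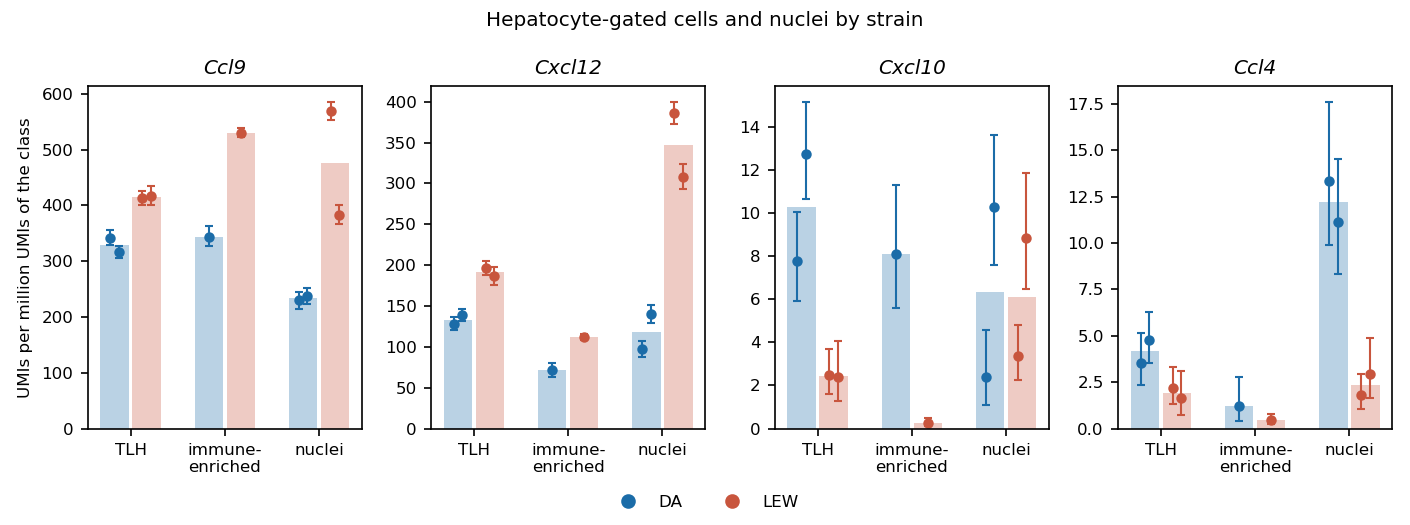
Level of Ccl9, Cxcl12, Cxcl10 and Ccl4 in hepatocyte-gated cells and nuclei (y axis, UMIs per 1000000 UMIs of the class) by platform (x axis) and strain (colour). Points are libraries with exact 95% Poisson intervals for counting error, and bars are strain means. Ccl9 and Cxcl12 were higher in LEW on each platform, Cxcl10 was lower in LEW TLH and immune-enriched cells, and Ccl4 was lower in LEW nuclei.

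In the 2 Wistar sections, with 2437 and 2404 spots that each cover several cells, Ccl9, Cxcl12 and Ccl6 were widespread. Ccl9 was at 610 and 665 CPM, here per 1000000 UMIs of the spots, and was found in 98.3% of the spots of section A. Cxcl12 was at 234 and 228, Ccl6 at 213 and 230 and Ccl5 at 27.2 and 24.8 CPM. The other 6 genes were at or below 4.68 CPM. Spots were split into terciles by summed pericentral against periportal genes, none of them a chemokine. Ccl6 was at 153 and 163 CPM in the pericentral terciles and at 283 and 316 in the periportal terciles of sections A and B. Marco, a Kupffer cell receptor, rose in the same direction, from 48.1 and 44.6 to 163 and 217. Ccl5 was at 19.2 and 21.4 pericentrally and 34.9 and 31.6 periportally, while Cxcl12 differed less, at 217 and 219 against 247 and 246. Ccl9 had no common direction, at 608 and 681 against 611 and 648. These are values of 2 sections with no test.

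**Figure D5:**
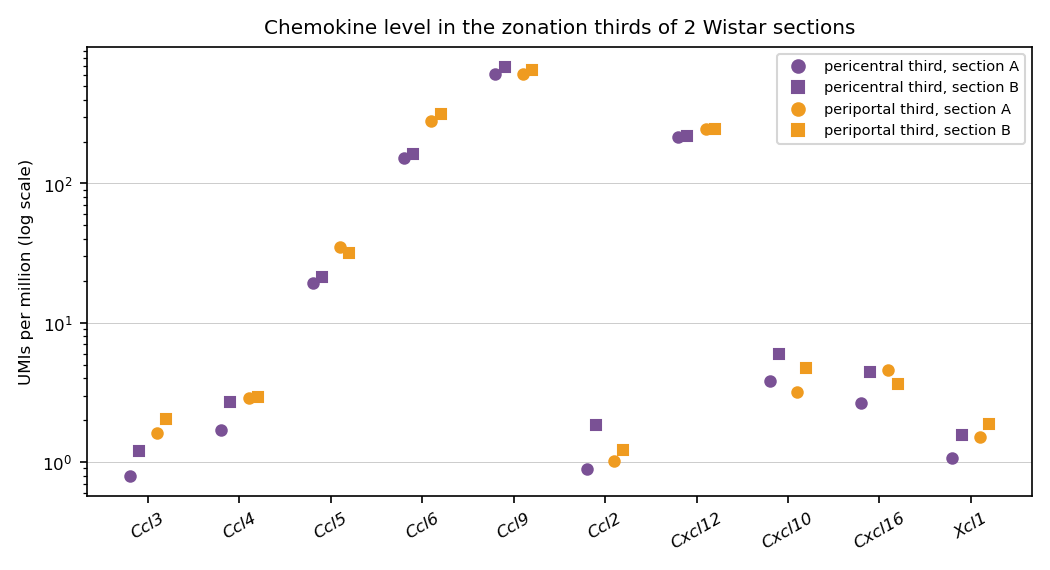
Level of the 10 chemokine genes (y axis, CPM, log scale) in the pericentral and periportal terciles (colour) of 2 Wistar sections (shape). Ccl6 and Ccl5 were higher in the periportal tercile of both sections, and Ccl9 was level.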

How the data were processed

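Whole cells, nuclei and spots of rat liver were measured by droplet or spot RNA sequencing. The submitters' processing notes name Cell Ranger 3.1.0 and Space Ranger 1.1.0. The values used are UMI counts per gene and barcode as deposited by the authors, with no normalization. The study's methods name a custom Rattus norvegicus reference of another assembly than the promoter table, so no coordinates of the files were used. The TLH and immune-enriched matrices carry no gene names, so names were taken row by row from the nuclei gene list of the same length.

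Cells were kept at the study's UMI and mitochondrial limits (1000 to 2000 UMIs and 10 to 50% mitochondrial counts), except that both LEW TLH libraries were cut at 2000 UMIs, which leaves the cell numbers the study states, in place of its stated 1500, kept as an alternative. The DA TLH libraries were cut at 1500 and 2000 UMIs. The mitochondrial limit was 30 and 20% in the DA and 40% in both LEW TLH libraries. This limit differed with strain, and no alternative with equal mitochondrial limits was run. Kupffer cells needed 5 of 7 gate genes (4 in nuclei), Lyz2 myeloid cells 5 of 11, NK cells 3 of 10 (5 in immune-enriched cells), T, B and plasmacytoid dendritic cells 3, endothelial cells 5 of 12, mesenchymal cells 6 of 13, erythroid cells 4 of 5, and hepatocytes 8 of 9 with at most 2 genes of any other list. These cuts were set after gate-gene counts were seen, without regard to chemokine values. Cells passing 2 gates (0.760 to 11.0% per library) were left out as possible doublets, and no doublet caller was run. Nuclei libraries shared 8 to 24 barcodes per pair. The 2 sections shared 1793 spot barcodes, which mark slide positions. TLH and immune-enriched barcodes were not analysed here.

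Counts were summed per library and class (at least 20 cells) and tested with edgeR 4.0.16 (TMM, filterByExpr, glmQLFit, glmQLFTest) in R 4.3.3 with limma 3.58.1, at an adjusted p of 0.05, with DESeq2 1.42.0 as an alternative. Shares and ratios have exact 95% intervals, which cover counting error only. The 95% intervals of log2 differences were taken from the SE by a normal approximation, which makes them too narrow with so few libraries. UMIs are molecules, but each library is 1 rat. A count of 0 allows up to 3 counts. Shares were thinned to 1000 UMIs per cell, leaving out shallower ones. Likeness is Pearson's r on log2(CPM + 10) over sums, for genes reaching 50 CPM.

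The members, and the lists of other ligands, receptors, immediate-early, NF-kB and interferon genes, were chosen with earlier results of these data known. Named genes are the 10 members, called genes of those lists and the 3 genes nearest each member in level. Tests in hepatocytes, in mesenchymal nuclei, and of the endothelial and mesenchymal differences, and the scale per 1000 gate-gene UMIs, were added after the data were seen. On simulated counts with 200 changed genes, the Kupffer TLH test recovered 51% of genes changed by 1 on the log2 scale and 90.2% of those changed by 2. The Kupffer nuclei test recovered 17.1 and 73.7%, and the test of their difference 2.08 and 28.8%. The replicate numbers in the labels do not name shared animals or batches. 1 receptor gene is not reported here.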

Additional observations from a re-analysis of the deposited data

Results flagged for a closer look

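The strain difference of Cxcl12 changed between platforms in Kupffer-gated cells. It was 1.91 higher on the log2 scale in nuclei than in TLH cells by the test of that difference itself. The strain difference of Cxcl12 was 1.60 on the log2 scale in hepatocyte-gated nuclei and 0.08 in mesenchymal-gated nuclei, and neither passed edgeR's test. In endothelial-gated nuclei it was 1.85 and passed (edgeR adjusted p = 0.0293), in the main analysis and in 9 of 10 alternatives. The Kupffer call between platforms was lost in 7 of 15 alternatives, with adjusted p up to 0.200.

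The strain difference of Ccl6 changed as well and was lower in Kupffer-gated nuclei than in TLH cells, with a value of -1.77 on the log2 scale. Ccl6 was 9508 CPM on average in LEW and 3003 CPM in DA TLH cells, and 720 and 855 CPM in nuclei. Per 1000 UMIs of the Kupffer gate genes the ratio of LEW to DA means was 1.92 in TLH cells and 1.26 in nuclei. This call was also lost in 7 of 15 alternatives, with adjusted p up to 0.163. No group had more than 2 libraries, so single libraries could not be tested as far from the others.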

How the results depend on the processing

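The counts of members called were small and moved easily. In Kupffer-gated TLH cells 3 were called in the main analysis and 2 to 3 without any 1 library. In Kupffer-gated nuclei the count rose from 0 to 1 with RLE size factors, 1 more gate gene or cells of 2 gates kept, to 2 with no filter, and was 0 to 1 without any 1 library. For the Kupffer difference it fell from 2 to 0 with the LEW libraries at 1500 UMIs, rose to 3 with no filter, 1 more gate gene or cells of 2 gates kept, and was 0 to 2 without any 1 library. For endothelial TLH cells it went from 2 to 0 by DESeq2, 3 with no filter, 1 with cells of 2 gates kept, and 1 to 3 without any 1 library. For endothelial nuclei it went from 1 to 0 with cells of 2 gates kept and 1 to 2 without any 1 library, and for the endothelial difference from 0 to 1 with no filter and 0 to 1 without any 1 library. For mesenchymal TLH cells it went from 0 to 1 with no filter, the 1500 limit or cells of 2 gates kept, and 0 to 1 without any 1 library, and for mesenchymal nuclei from 0 to 1 with no filter and 0 to 1 without any 1 library. For NK cells it went from 1 to 0 by DESeq2 or with 1 more gate gene, 2 with no filter, and 0 to 3 without any 1 library. For Lyz2 myeloid cells it went from 1 to 0 by DESeq2, which gave Cxcl16 no adjusted p, 2 with cells of 2 gates kept, and 0 to 1 without any 1 library. For hepatocyte TLH cells it went from 2 to 3 with no filter, and 0 to 2 without any 1 library. For hepatocyte nuclei it went from 1 to 2 by DESeq2 or with no filter, and 0 to 1 without any 1 library. The cause of these moves was not tested.

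With the replicate number as a block the count was 0 for the Kupffer difference, endothelial TLH, NK and hepatocyte TLH cells, 1 for mesenchymal TLH cells and 2 for hepatocyte nuclei. The numbers mark no shared animal, and same-numbered deviations correlated at -0.17 to 0.10, so the block is not read as a pairing.

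Ccl6 in Kupffer nuclei, with a log2 difference of -0.17, ranged from -0.53 to 0.23 without any 1 library, and turned to 0.23 without the first DA and to 0.18 without the first LEW nuclei library. Cxcl12 in mesenchymal nuclei, at 0.08, ranged from -0.21 to 0.56 and turned to -0.21 and -0.12 without the same libraries. Ccl5 in endothelial TLH cells turned to 1.35 with cells of 2 gates kept. Per 1000 gate-gene UMIs the LEW to DA ratio in NK-gated TLH cells turned to 0.768 for Ccl5, 0.833 for Xcl1 and 0.979 for Ccl4, that in immune-enriched NK-gated cells to 0.935 for Xcl1, and that in Kupffer-gated nuclei to 1.26 for Ccl6.

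Over all genes, the 459 calls in Kupffer TLH cells became 158 to 620 under other settings and 149 to 575 without any 1 library. The 50 calls of the Kupffer difference became 2 to 169 and 0 to 209. In Kupffer-gated nuclei Ccl3 and Ccl4 had 3 to 8 UMIs per library and Cxcl16 had 28 in all, which limits what nuclei can show of them, and there were 2 libraries per strain on either platform.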

Other observations

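Other chemokine genes were followed through a list of 26 further ligands and 21 receptors in the gene list. Of the ligands, 12 reached 20 CPM with 10 UMIs in some class and library. Ccl24, a ligand of Ccr3, was at 142 and 168 CPM in DA and 120 and 162 CPM in LEW endothelial-gated TLH cells, which overlapped. Endothelial-gated nuclei were at 277 and 180 CPM in DA and 129 and 144 CPM in LEW, with no overlap, and Ccl24 was not called there (edgeR adjusted p = 0.417). In immune-enriched Lyz2 myeloid-gated cells it was at 507 CPM in DA and 252 CPM in LEW. Ccl12, a monocyte-attracting relative of Ccl2, had 1 and 3 UMIs in DA and 19 and 28 in LEW Kupffer-gated TLH cells, or 1.29 and 2.10 CPM against 19.2 and 31.8 CPM. It could enter edgeR's test only through the LEW libraries, so its call is not used. Cxcl9 was lower in LEW hepatocyte-gated TLH cells, at 38.4 and 32.5 CPM in DA and 9.95 and 12.6 CPM in LEW, the same direction as Cxcl10 (log2 difference -1.63, SE 0.19, edgeR adjusted p = 0.00229). Ccl24 was called there too, at 6.72 and 5.46 CPM in DA and 1.56 and 2.75 CPM in LEW (log2 difference -1.53, SE 0.35, edgeR adjusted p = 0.0466). These 2 were the calls among 10 other ligands tested, with 4.22% of 9747 genes called. Endothelial-gated TLH cells held more Ccl24, as above, and Cxcl9 there was at 57.5 and 60.7 CPM in DA and 22.3 and 107 CPM in LEW, which overlapped. The part of free RNA in the hepatocyte-gated values was not tested. Ccl25, a ligand of Ccr9, had 1 and 1 UMIs in DA and 44 and 12 in LEW hepatocyte-gated nuclei, and its call is not used for the same reason. Ccl1 in immune-enriched NK-gated cells was at 610 CPM in DA and 129 CPM in LEW, with 1 rat each. The TLH NK-gated cells did not follow this direction, at 13.1 and 8.80 CPM in DA and 55.4 and 0 CPM in LEW, from 20 UMIs in all.

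Of the receptors, 11 reached that level. Cxcr4, the receptor of Cxcl12, was at 220 CPM in DA and 226 CPM in LEW immune-enriched B-gated cells, and Xcr1, the receptor of Xcl1, at 108 and 55.7 CPM in Lyz2 myeloid-gated cells. Ackr4, which removes chemokines from tissue, was at 7.37 and 11.2 CPM in DA and 30.1 and 58.7 CPM in LEW endothelial-gated TLH cells. It was at 15.4 and 18.3 CPM in DA and at least 41.0 CPM in both LEW libraries of endothelial-gated nuclei. On both platforms Ackr4 could enter edgeR's test only through the LEW libraries, so neither result of that test is used.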
